A study of Mus musculus with 28 samples.

Results

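Induced hepatocyte-like cells made with Foxa3 and Hnf4a were set against the embryonic fibroblasts they came from, in 8 of the 28 mouse RNA-seq libraries of the series. The 6 libraries of the induced cells (iHep_Foxa3) and the 2 libraries of fibroblasts (MEF) were taken by their titles, and the genes described are those that differed the same way in all 6. The iHep_Foxa3 cells were C57BL/6 fibroblasts infected with pGCDNsam retroviruses that carried Foxa3 and Hnf4a cDNAs and kept in culture as iHep cells by a published protocol. MEF were C57BL/6 fibroblasts from embryos taken 13.5 days post coitum, with no infection in their labels. Other groups give side values. These are iHep cells made the same way with Hnf4a and Foxa1 (iHep_Foxa1, 6 libraries) or with Hnf4a and Foxa2 (iHep_Foxa2, 4 libraries). Hepatocytes from C57BL/6 livers of 10-week-old mice (Hep, 2 libraries) are used likewise. Libraries of 48 h after transfection entered the fit of all 28 libraries. They were 6 with full-length factors (48h_Foxa1, 48h_Foxa2 and 48h_Foxa3) and 2 titled 48hr_4a3_del2 (48h_Foxa3del2). Controls infected with virus lacking a factor, or with the Hnf4a virus by itself, were not analysed here, so infection, culture time and the factors cannot be told apart. The labels do not say whether the 6 libraries came from separate lines, embryos or infections. The p-values thus measure only spread between libraries, estimated within groups over all 28 libraries of the series.

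Hnf4a is a nuclear receptor that switches on many genes of hepatocytes and of the gut epithelium. Foxa proteins are pioneer factors of the foregut, able to bind DNA packed in chromatin, and Foxa3 is the member most abundant in adult liver. Together they are used to push fibroblasts, which make matrix and have no cell junctions of the epithelial kind, towards cells that secrete plasma proteins and clear drugs, bile acids and ammonia.

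Depth was similar in both groups, with 25580687 to 30178320 assigned reads in iHep_Foxa3 libraries and 22039143 to 22178268 in MEF libraries. Levels (CPM) are counts scaled to library totals adjusted by the TMM factors of the test, rather than to the assigned reads alone. This adjustment raised Hep levels relative to a scaling by assigned reads, so the size of differences from Hep depends on it. The correlation of log2 levels was 0.950 to 0.991 among iHep_Foxa3 libraries, 0.983 between the MEF libraries and 0.796 to 0.836 across groups. Replicate 1 of iHep_Foxa3 stood apart from the others in Rn7sk, the 7SK small nuclear RNA, and in Rps29, a ribosomal protein gene. Rn7sk had 0.959, 72.5, 37.2, 61.6, 71.5 and 67.7 CPM in iHep_Foxa3 replicates 1 to 6, against 0.862 and 1.81 CPM in MEF. Rps29 had 58.7, 446, 555, 425, 474 and 831 CPM in iHep_Foxa3 replicates 1 to 6, against 35.4 and 34.8 CPM in MEF. Replicate 1 thus held low Rn7sk like both MEF libraries, and list counts are also given below with a term for this split (the set term), for replicate 1 alone and without 1 library where these moved them by over 1.5 times. The split goes by Rn7sk at 10 CPM, and the set term rests on iHep_Foxa3 and iHep_Foxa1, the only groups with libraries on both sides. Rps29 did not follow Rn7sk in every group: 48h_Foxa3del2 had low Rn7sk with Rps29 at 372 and 373 CPM. The part of this split in the results was not tested. MEF replicate 2 held more leukocyte RNA than replicate 1, with the marker values given among the leukocyte genes.

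Of 16499 genes tested, 7689 (46.6%) passed an adjusted p of 0.05, 3781 higher (22.9%) and 3908 lower (23.7%) in iHep_Foxa3. Genes called consistent passed that test and also had all 6 iHep_Foxa3 libraries on the same side of both MEF libraries. They numbered 3424 higher (20.8% of genes tested) and 3621 lower (21.9%), and the other 644 called genes overlapped between groups. Every list count below is to be read beside these shares of all genes tested. A gap of at least 2-fold between the nearest libraries of the groups, on CPM + 0.5, was found for 1128 of the higher and 1497 of the lower genes. Among the lower genes, 351 had a MEF mean under 1 CPM and so describe traces. The count rests on both MEF libraries: without MEF replicate 1 it was 2289 higher and 3025 lower, and without MEF replicate 2 it was 2163 higher and 2694 lower. Replicate 1 alone against MEF, all of low Rn7sk, gave 2019 higher and 1971 lower, of which 1667 and 1655 were among the consistent genes of the full comparison.

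**Figure D1:**
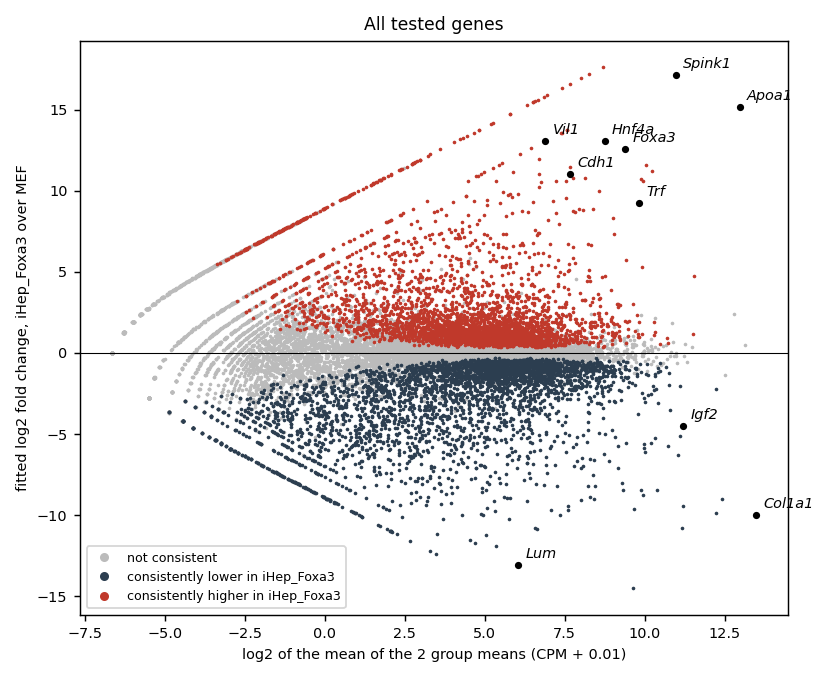
Fitted log2 fold change of iHep_Foxa3 over MEF (y axis) against the log2 of the mean level of the groups in CPM + 0.01 (x axis), 1 point a gene over 16499 genes; straight lines of points are genes with 0 or a few counts in 1 group. The 3424 consistently higher genes reach to Spink1 and Apoa1 at the top right, and the 3621 consistently lower ones to Col1a1 and Lum.

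The introduced factors came first in the check of the labels. Foxa3 had 653, 2037, 2074, 1042, 1003 and 1275 CPM in iHep_Foxa3 replicates 1 to 6, against 0.192 and 0.238 CPM in MEF. Hnf4a had 548, 1505, 872, 849.9, 612 and 805 CPM in iHep_Foxa3 replicates 1 to 6, against 0 and 0.1903 CPM in MEF. All 6 iHep_Foxa3 libraries were far above both MEF libraries for each factor, where the MEF values rest on 9 counts of Foxa3 and 4 of Hnf4a. Foxa3 was higher (log2 fold change 12.59 ± 0.94 (SE), adjusted p = 1.9e-09), and for Hnf4a the adjusted p was 4.6e-08. Reads of the viral cDNAs and of the cells' own genes were counted together, so the share made by the endogenous loci is unknown. The Foxa genes that were not introduced were at traces: Foxa1 had 0 to 0.198 CPM in iHep_Foxa3, against 0.718 and 0.333 CPM in MEF, and Foxa2 had 0 to 0.628 CPM in iHep_Foxa3, against 0.144 and 0.0476 CPM in MEF. Neither passed the test (adjusted p = 0.068 and 0.95).

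The 10 largest rises included genes known from mucus-making, barrier and gut epithelium. Each of the first 10 was at 0 to 1 counts over both MEF libraries. Clca1, a secreted goblet cell protein that processes mucus, had 179 to 2162 CPM (median 488) in iHep_Foxa3, against 0 and 0 CPM in MEF. Smgc, a salivary mucin-like gene, had 140.2 to 1684 CPM (median 545) in iHep_Foxa3, against 0 and 0 CPM in MEF, and Spink1, a secreted trypsin inhibitor of pancreas and gut, had 2722 to 7017 CPM (median 3197) in iHep_Foxa3, against 0.0479 and 0 CPM in MEF. No iHep_Foxa3 library overlapped MEF for any of these, although the highest iHep_Foxa3 library was 12.1 times the lowest for Clca1 and 11.97 times for Smgc, on CPM + 0.5. Against a floor of 3 counts over the MEF libraries, the mean was at least 11648-fold higher for Clca1 (adjusted p = 0.00020) and at least 8591-fold higher for Smgc (adjusted p = 0.0018). Spink1 had 1 count in MEF and an adjusted p of 1.8e-06.

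The remaining 7 of the first 10 rises had no MEF count. Bcas1 had 267 to 515 CPM in iHep_Foxa3 libraries, at least 5674-fold higher (adjusted p = 9.5e-08). Sprr2a1, a cornified envelope protein also made in gut epithelium under stress, had 42.4 to 577 CPM and shares sequence with a near-identical copy, so its count is uncertain. Scnn1g, the gamma subunit of the epithelial sodium channel, had 84.5 to 413 CPM, at least 3238-fold higher. Its 6 libraries all lay above MEF at 0. Clic6, a chloride channel family member, had 145 to 390 CPM (at least 2813-fold higher), and Ffar4, a fatty acid receptor of enteroendocrine cells, had 90.5 to 272 CPM (at least 2662-fold higher). Oit1 reached 515 CPM and AW112010 reached 476 CPM, with lowest libraries at 129.9 and 41.3 CPM.

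Promoters are shown for 4 risers with the FOXA letters TGTTTAC and 1 with the HNF4 letters CAAAGTNCA, since those are the sites named for the introduced families. Both strands were searched over 300 bases, from 250 before to 50 after each RefSeq start, in build GRCm38.p6; the letters found are in capitals. The positions are Smgc chr15:91838078-91838377 (+ strand), Tspan8 chr10:115817034-115817333 (+ strand), Rbp4 chr19:38125272-38125571 (- strand), Cdx2 chr5:147307200-147307499 (- strand) and Tkfc chr19:10604209-10604508 (- strand).
Smgc: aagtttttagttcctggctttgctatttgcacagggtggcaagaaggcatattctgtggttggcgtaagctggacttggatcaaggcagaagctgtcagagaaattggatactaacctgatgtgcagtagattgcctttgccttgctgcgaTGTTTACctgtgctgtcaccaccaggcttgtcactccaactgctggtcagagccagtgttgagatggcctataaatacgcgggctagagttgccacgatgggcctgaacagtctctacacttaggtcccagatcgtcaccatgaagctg
Tspan8: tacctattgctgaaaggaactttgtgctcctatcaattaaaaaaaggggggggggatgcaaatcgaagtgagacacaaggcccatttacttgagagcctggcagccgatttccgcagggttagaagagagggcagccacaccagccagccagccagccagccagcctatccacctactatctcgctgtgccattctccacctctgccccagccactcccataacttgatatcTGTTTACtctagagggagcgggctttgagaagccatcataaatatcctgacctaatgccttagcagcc
Rbp4: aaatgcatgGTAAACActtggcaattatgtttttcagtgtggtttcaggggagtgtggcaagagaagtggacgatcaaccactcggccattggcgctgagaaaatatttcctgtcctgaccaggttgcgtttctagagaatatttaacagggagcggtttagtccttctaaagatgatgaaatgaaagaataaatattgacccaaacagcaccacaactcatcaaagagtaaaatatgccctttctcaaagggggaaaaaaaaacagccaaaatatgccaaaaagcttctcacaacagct
Cdx2: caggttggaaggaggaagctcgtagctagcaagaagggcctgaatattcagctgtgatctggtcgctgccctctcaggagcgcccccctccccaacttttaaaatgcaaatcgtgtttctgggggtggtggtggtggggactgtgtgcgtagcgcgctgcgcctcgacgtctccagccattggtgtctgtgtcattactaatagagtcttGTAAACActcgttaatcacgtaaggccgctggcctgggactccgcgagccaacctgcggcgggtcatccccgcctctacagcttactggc
Tkfc: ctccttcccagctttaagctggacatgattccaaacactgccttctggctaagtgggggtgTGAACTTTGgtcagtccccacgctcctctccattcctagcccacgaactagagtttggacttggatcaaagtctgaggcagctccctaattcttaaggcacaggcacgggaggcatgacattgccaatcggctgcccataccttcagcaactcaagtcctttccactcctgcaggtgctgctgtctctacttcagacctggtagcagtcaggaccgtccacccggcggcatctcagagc
Counted from the start, with negative positions before it, the first base of the match lay at -99 in Smgc, -18 in Tspan8, -241 in Rbp4, -40 in Cdx2 and -189 in Tkfc. The match was on the gene's own strand in Smgc and Tspan8 and on the other strand in Rbp4, Cdx2 and Tkfc. TGTTTAC was found for 108 of 2681 consistently higher genes with a promoter in the table (4.03%), 66 of 2749 consistently lower genes (2.4%) and 414 of all 12753 tested genes with one (3.25%). CAAAGTNCA was found for 53 consistently higher genes (1.98%), 35 consistently lower genes (1.27%) and 201 of all (1.58%). Among other named genes, TGTTTAC was found for Axl, Mcm7, Mdm2 and Mxi1, called higher, and for Cald1 and Hgf, called lower. It was also found for Apoe and Foxa1, which were not called. Neither motif contains the other, and a match describes letters only.

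Hepatic transcription factors moved in part. Of 27 tested, 9 were consistently higher and 1 consistently lower, against 20.8% and 21.9% of all genes tested. The list median log2 fold change was 2.31, against 0.05 over all genes tested. Of the 27, 10 had means under 1 CPM in both groups. Gata4, a zinc finger factor of foregut endoderm, had 3.38 to 15.7 CPM (median 12.4) in iHep_Foxa3, against 0.144 and 0.0476 CPM in MEF. Nr1i2, the xenobiotic receptor PXR, had 7.18 to 33.9 CPM (median 12.4) in iHep_Foxa3, against 0.144 and 0.0952 CPM in MEF (log2 fold change 7.14 ± 1.18, adjusted p = 4.3e-05). Nr1h3, the oxysterol receptor LXR alpha, had 11.6 to 27.8 CPM (median 16.9) in iHep_Foxa3, against 2.68 and 1.05 CPM in MEF, with an adjusted p of 4.3e-05. The lowest iHep_Foxa3 library was above the highest MEF library for each of them.

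Other higher members included Gata6, Hhex, Prox1, Ppara and Nr1i3, named here after their values were seen. Gata6 had 16.6 to 44.1 CPM in iHep_Foxa3, against 2.298 and 6.42 CPM in MEF, and Prox1, a homeobox factor of early liver, had 2.199 to 9.34 CPM in iHep_Foxa3, against 0.335 and 0.238 CPM in MEF. Nr1i3, the CAR receptor, had 0.265 to 1.19 CPM in iHep_Foxa3, against 0.0479 and 0 CPM in MEF (adjusted p = 0.017), a call lost without either MEF library (adjusted p = 0.063 and 0.14) and with the set term (0.13). Hhex had 6.82 to 24.6 CPM in iHep_Foxa3, against 0.335 and 2.24 CPM in MEF, and Ppara, the fatty acid receptor of liver, had 2.35 to 10.5 CPM in iHep_Foxa3, against 1.24 and 0.809 CPM in MEF.

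Atf5, a bZIP factor abundant in liver and in stressed cells, was the lower one, with 12.2 to 71.4 CPM (median 22.97) in iHep_Foxa3, against 1299 and 1401 CPM in MEF (log2 fold change -5.56 ± 0.60 (SE), adjusted p = 2.1e-07). Cebpa, a hepatocyte master regulator, had 24.1 to 76.9 CPM in iHep_Foxa3, against 21.9 and 56.4 CPM in MEF, and its libraries overlapped (adjusted p = 0.84). Cebpd, Rxra and Xbp1 were also not called, with adjusted p of 0.15, 0.59 and 0.28.

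Of 36 secreted carriers and protease inhibitors tested, 16 were consistently higher and 4 consistently lower, and the list median log2 fold change was 3.89. Of the 36, 16 had means under 1 CPM in both groups. Of the 4 lower members, 3 had a MEF mean under 1 CPM. Summed over the list, iHep_Foxa3 libraries held 5443 to 12908.5 CPM and MEF libraries 115.6 and 117.9 CPM.

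Ahsg, the fetuin A gene, had 133, 451, 2067, 4039, 4403 and 859.9 CPM in iHep_Foxa3 replicates 1 to 6, against 1.24 and 1.28 CPM in MEF. All 6 were above MEF, with replicate 1 the lowest, replicates 4 and 5 the highest and a ratio of highest to lowest of 33.1. Serpina1b, an alpha-1 antitrypsin gene, had 821 to 3502 CPM (median 2504) in iHep_Foxa3, against 0.814 and 1.24 CPM in MEF, and its neighbour copy Serpina1a had 193 to 1332 CPM (median 825) in iHep_Foxa3, against 0.718 and 0.761 CPM in MEF. These copies are near identical, so how the reads were split between them is uncertain.

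Trf, the iron carrier transferrin, had 1014 to 2679 CPM (median 1669) in iHep_Foxa3, against 2.25 and 3.85 CPM in MEF (log2 fold change 9.23 ± 1.07 (SE), adjusted p = 6.0e-07). Cp, the copper oxidase ceruloplasmin, had 102 to 394 CPM in iHep_Foxa3, against 1.53 and 3.38 CPM in MEF (adjusted p = 9.2e-07). Rbp4, the retinol carrier, had 7.22 to 20.05 CPM in iHep_Foxa3, against 1.197 and 0.809 CPM in MEF (log2 fold change 3.79 ± 0.47 (SE), adjusted p = 1.5e-06). Igf1, a growth factor of adult liver, was lower, at 0.252 to 2.11 CPM in iHep_Foxa3, against 6.51 and 43.3 CPM in MEF, with the MEF libraries far apart and an adjusted p of 2.2e-06.

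Albumin stood out from these, and is named with Afp and Ttr after their values were seen. Alb had 10.8, 25.4, 57.4, 58.05, 163 and 15.4 CPM in iHep_Foxa3 replicates 1 to 6, against 7.805 and 8.52 CPM in MEF. The groups did not overlap, but replicates 1 and 6 were near MEF and replicate 5 far above the rest, and the test was not passed (adjusted p = 0.18). Alb had 148958 and 131113 CPM in Hep, the hepatocytes. Afp, the fetal counterpart of albumin, had 20.6 to 111 CPM (median 44.1) in iHep_Foxa3, against 0 and 0.0476 CPM in MEF (adjusted p = 0.0017, 1 MEF count). Ttr, the thyroxine carrier, had 0 to 1.05 CPM in iHep_Foxa3, against 0.287 and 0.476 CPM in MEF, overlapping, with an adjusted p of 0.89; it had 4903 and 5799.7 CPM in Hep.

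**Figure D2:**
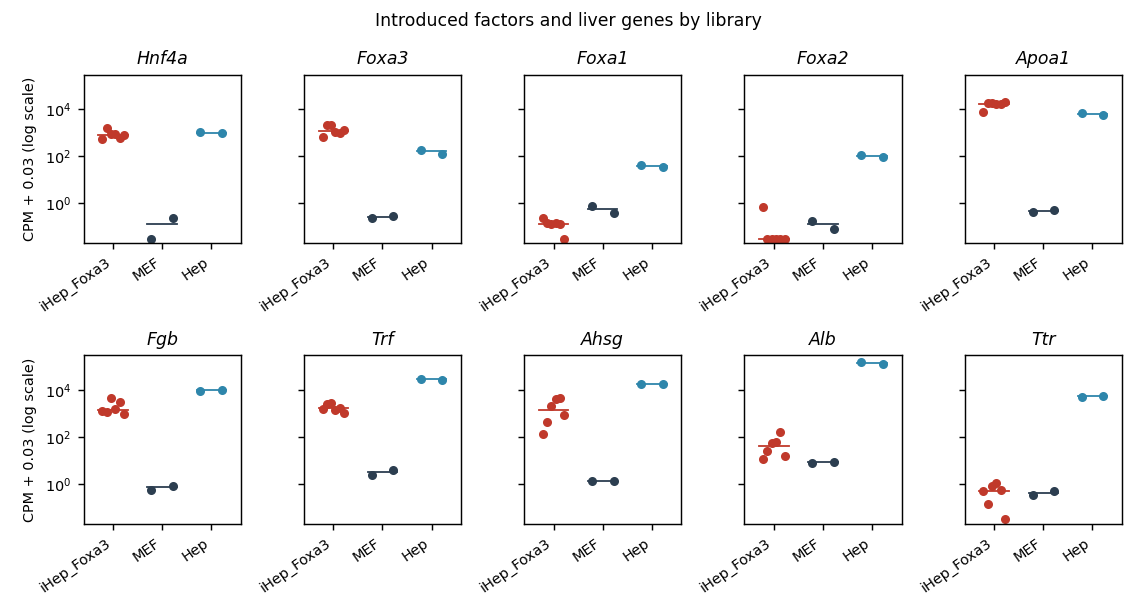
CPM + 0.03 on a log axis for the introduced factors, the other Foxa genes and 6 liver genes, 1 point a library and a line at the median, in iHep_Foxa3 (6 libraries), MEF (2) and Hep (2). Apoa1 of iHep_Foxa3 lies above Hep, Fgb, Trf and Ahsg lie between MEF and Hep, and Alb and Ttr lie near MEF.

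Clotting factors split by gene. Of 18 tested, 4 were consistently higher (Fgb, Kng1, F5 and F7) and 2 lower (Pros1 and a gene with a MEF mean under 1 CPM), and the list median was 1.18. These shares were near or under those of all genes, and 11 of the 18 had means under 1 CPM in both groups. Fgb, the fibrinogen beta chain, had 961 to 4400.1 CPM (median 1436) in iHep_Foxa3, against 0.527 and 0.809 CPM in MEF (log2 fold change 11.60 ± 1.40 (SE), adjusted p = 9.4e-07). Fga, the alpha chain of the same protein, had 0.288 to 3.703 CPM in iHep_Foxa3, against 0.575 and 0.428 CPM in MEF, and the groups overlapped (adjusted p = 0.62). Kng1, the kininogen gene, had 422 to 2969.8 CPM (median 1943) in iHep_Foxa3, against 0.958 and 1.28 CPM in MEF (log2 fold change 10.70 ± 1.59 (SE), adjusted p = 1.3e-05).

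F5, a cofactor of thrombin formation, had 11.01 to 51.98 CPM in iHep_Foxa3, against 1.48 and 0.1903 CPM in MEF (adjusted p = 0.0010). F7, which starts the extrinsic pathway, had 0.361 to 7.11 CPM in iHep_Foxa3, against 0.0479 and 0 CPM in MEF; the call (adjusted p = 0.035) ended without iHep_Foxa3 replicate 5 (0.067) without either MEF library (0.13 and 0.19) and with the set term (0.11). F2, prothrombin, had 0.0992 to 0.965 CPM in iHep_Foxa3, against 0.0958 and 0.285 CPM in MEF (adjusted p = 0.26). Pros1, the protein S gene, which fibroblasts and endothelium also make, had 41.000 to 77.5 CPM in iHep_Foxa3, against 177 and 190.3 CPM in MEF (log2 fold change -1.62 ± 0.43 (SE), adjusted p = 0.0037, and 0.12 with the set term). Replicate 1 alone gave 2 higher and 1 lower, the set term 3 higher and 0 lower, and without MEF replicate 1 there was 1 lower.

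Of 17 complement components tested, 3 were consistently higher and 2 lower, shares of the list near or under those of all genes. Of the 17, 10 had means under 1 CPM in both groups. Cfb, complement factor B, had 52.996 to 181 CPM (median 90.7) in iHep_Foxa3, against 1.197 and 1.05 CPM in MEF (log2 fold change 6.47 ± 1.16 (SE), adjusted p = 0.00011). C9, a pore subunit, had 1.48 to 6.06 CPM in iHep_Foxa3, against 0.0958 and 0.0952 CPM in MEF (adjusted p = 0.0031), and Masp2, a lectin pathway protease, had 1.45 to 3.34 CPM in iHep_Foxa3, against 0.9098 and 0.809 CPM in MEF (log2 fold change 1.39 ± 0.37 (SE), adjusted p = 0.0037). C3, the central component, had 3.24 to 50.4 CPM in iHep_Foxa3, against 2.298 and 3.76 CPM in MEF, overlapping, with an adjusted p of 0.077. No complement gene was lower with the set term, with replicate 1 alone or without MEF replicate 2, and 1 was without MEF replicate 1 or without iHep_Foxa3 replicate 2.

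Apolipoproteins were led by Apoa1, the main protein of HDL. Apoa1 had 7588, 17545, 18489, 16334, 16889 and 19763 CPM in iHep_Foxa3 replicates 1 to 6, against 0.383 and 0.476 CPM in MEF. Replicate 1 was the lowest by far and still far above MEF (log2 fold change 15.18 ± 1.31 (SE), adjusted p = 1.3e-08); Apoa1 had 7052 and 5775 CPM in Hep. Per length, Apoa1 was the most abundant of the 23712 gene rows in each of the 6 iHep_Foxa3 libraries, at 7959 to 20393 FPKM (fragments scaled by transcript length and depth), against 0.36 to 0.45 FPKM in MEF. On the same scale Spink1 ranked 2 to 4 in those libraries, at 6773 to 17175 FPKM.

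Of 22 genes of lipoproteins and their assembly, 8 were consistently higher and 2 lower, against 20.8% and 21.9% of all genes tested. Both lower ones had MEF means under 1 CPM, and the list median was 0.55. Of the 22, 10 had means under 1 CPM in both groups. Apoc2, the activator of lipoprotein lipase, had 39.5 to 138 CPM (median 117) in iHep_Foxa3, against 0 and 0.1903 CPM in MEF (adjusted p = 0.0011); it lies next to Apoc4, so reads of the pair may be shared. Angptl4, an inhibitor of that lipase, had 354 to 1359.7 CPM (median 1206) in iHep_Foxa3, against 4.79 and 1.67 CPM in MEF (adjusted p = 0.00030). Lcat, which esterifies cholesterol in HDL, had 1.19 to 4.94 CPM in iHep_Foxa3, against 0.335 and 0.238 CPM in MEF (log2 fold change 3.30 ± 0.69 (SE), adjusted p = 0.00054). Apoe had 99.8 to 638 CPM in iHep_Foxa3, against 66.1 and 291 CPM in MEF, overlapping (adjusted p = 0.52). The count was 5 higher with the set term, with replicate 1 alone and without either MEF library, and 1 was lower with replicate 1 alone or without MEF replicate 2.

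Of 19 bile acid genes tested, 4 were consistently higher and 3 lower, shares of the list near or under those of all genes. Of the 19, 12 had means under 1 CPM in both groups. With the set term, or with replicate 1 alone, 1 was lower. Abcb4, which moves phospholipid into bile, had 14.3 to 62.7 CPM (median 21.9) in iHep_Foxa3, against 0.431 and 0.428 CPM in MEF (log2 fold change 5.95 ± 1.001 (SE), adjusted p = 5.5e-05). Abcc3, an efflux pump of the blood side, had 23.2 to 101 CPM in iHep_Foxa3, against 2.83 and 4.09 CPM in MEF (log2 fold change 4.23 ± 0.85 (SE), adjusted p = 0.00034). Abcc6 had 1.49 to 9.26 CPM in iHep_Foxa3, against 0.0958 and 0.0476 CPM in MEF, with an adjusted p of 8.4e-06.

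Cyp27a1, the first enzyme of the acidic pathway of bile acid synthesis, had 33.4 to 113 CPM in iHep_Foxa3, against 1.29 and 0.999 CPM in MEF (log2 fold change 6.02 ± 0.79 (SE), adjusted p = 2.7e-06). Cyp7b1, the next enzyme of that pathway, was lower at 0 to 0.465 CPM in iHep_Foxa3, against 3.21 and 8.802 CPM in MEF (adjusted p = 0.00044, and 0.083 with the set term). Hsd3b7 had 8.56 to 51.4 CPM in iHep_Foxa3, against 15.7 and 18.1 CPM in MEF and overlapped (adjusted p = 0.051), and Baat, which conjugates bile acids, had 0.144 to 1.38 CPM in iHep_Foxa3, against 0.0958 and 0.143 CPM in MEF (adjusted p = 0.12).

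Xenobiotic enzymes gave 13 consistently higher genes and 1 lower gene of 38 tested, against 20.8% and 21.9% of all genes tested. The list median was 1.43. The lower gene had a MEF mean under 1 CPM, and 19 of the 38 were under 1 CPM in both groups. Gsta4, a glutathione transferase that clears lipid aldehydes, had 1151 to 1511 CPM (median 1322) in iHep_Foxa3, against 27.01 and 22.7 CPM in MEF (log2 fold change 5.74 ± 0.46 (SE), adjusted p = 5.1e-09). Gsta1 had 355 to 549.6 CPM (median 387) in iHep_Foxa3, against 0.239 and 0.0476 CPM in MEF (adjusted p = 8.0e-10) and Gsta2 had 12.1 to 27.2 CPM in iHep_Foxa3, against 0.0958 and 0 CPM in MEF (adjusted p = 4.9e-08), a pair of close copies whose reads may be split between them.

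Sult1a1, a phenol sulfotransferase, had 27.97 to 110.3 CPM (median 101) in iHep_Foxa3, against 0.192 and 0.0952 CPM in MEF (log2 fold change 9.23 ± 1.36 (SE), adjusted p = 1.2e-05). Ephx1, the microsomal epoxide hydrolase, had 285 to 666 CPM in iHep_Foxa3, against 201 and 115 CPM in MEF (log2 fold change 1.58 ± 0.30 (SE), adjusted p = 0.00021), and Por, the electron donor of cytochromes P450, had 89.5 to 197 CPM in iHep_Foxa3, against 49.2 and 42.3 CPM in MEF (log2 fold change 1.55 ± 0.44 (SE), adjusted p = 0.0066). The Por call ended without MEF replicate 2 (adjusted p = 0.080) and with the set term (0.099). Replicate 1 alone gave 6 higher genes of this list and none lower, the set term none lower, and without MEF replicate 1 there were 2 lower.

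Amino acid and urea genes went both ways, 10 consistently higher and 7 lower of 30, with a list median of 0.01. Over all genes tested the shares were 20.8% higher and 21.9% lower. Of the 30, 15 had means under 1 CPM in both groups. Of the 7 lower members, 6 had MEF means under 1 CPM. Glul, glutamine synthetase, had 313 to 1535 CPM (median 501) in iHep_Foxa3, against 25.5 and 35.1 CPM in MEF (log2 fold change 4.71 ± 0.71 (SE), adjusted p = 1.5e-05). Ahcy, which breaks down S-adenosylhomocysteine, had 415 to 867 CPM in iHep_Foxa3, against 68.7 and 66.99 CPM in MEF (log2 fold change 3.39 ± 0.54 (SE), adjusted p = 2.7e-05), and Prodh, proline dehydrogenase, had 24.9 to 44.3 CPM in iHep_Foxa3, against 1.24 and 0.761 CPM in MEF (log2 fold change 5.08 ± 0.60 (SE), adjusted p = 7.3e-07). Ass1, a urea cycle enzyme, was lower, at 7.15 to 40.1 CPM in iHep_Foxa3, against 322 and 163 CPM in MEF (log2 fold change -3.78 ± 0.52 (SE), adjusted p = 4.6e-06). The higher count was 6 with the set term, 5 with replicate 1 alone, 6 without MEF replicate 1 and 4 without MEF replicate 2, and with replicate 1 alone 3 were lower. The lower count was 4 with DESeq2's Wald test, 4 with limma and 3 in a fit of the 2 groups alone.

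Glucose and glycogen genes of liver gave 3 consistently higher and 3 lower of 15, shares near those of all genes. Of the 15, 8 had means under 1 CPM in both groups. Pygl, the liver glycogen phosphorylase, had 67.6 to 146 CPM in iHep_Foxa3, against 7.47 and 7.04 CPM in MEF (log2 fold change 3.86 ± 0.73 (SE), adjusted p = 0.00019). Tkfc, a kinase of fructose breakdown whose promoter is printed above, had 95.5 to 144 CPM in iHep_Foxa3, against 12.7 and 14.2 CPM in MEF (log2 fold change 3.09 ± 0.64 (SE), adjusted p = 0.00049). Ppargc1a, a coactivator of fasting genes, had 8.27 to 12.1 CPM in iHep_Foxa3, against 1.63 and 1.33 CPM in MEF (log2 fold change 2.75 ± 0.64 (SE), adjusted p = 0.0014). These groups did not overlap.

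Pck2, the mitochondrial PEP carboxykinase, was lower, at 60.9 to 80.5 CPM in iHep_Foxa3, against 139 and 162 CPM in MEF (log2 fold change -1.10 ± 0.16 (SE), adjusted p = 9.5e-06); the other lower members had MEF means under 1 CPM. Khk, fructokinase, overlapped with 7.58 to 15.7 CPM in iHep_Foxa3, against 5.03 and 8.99 CPM in MEF (adjusted p = 0.033, but 0.054 without iHep_Foxa3 replicate 6 and 0.36 without MEF replicate 1). Fbp1, of gluconeogenesis, had 0.562 to 1.34 CPM in iHep_Foxa3, against 0.287 and 0.143 CPM in MEF (adjusted p = 0.32). Set term and replicate 1 alone each left 1 lower gene, and without iHep_Foxa3 replicate 2 there were 5 higher.

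Of 13 glycolysis isoforms used by tissues other than liver, 2 were higher (Hk2 and Slc2a1) and 2 lower, Eno2 among them. Both shares were under those of all genes. Pkm, pyruvate kinase of muscle and dividing cells, had 1222 to 2501 CPM in iHep_Foxa3, against 3012 and 2007 CPM in MEF (adjusted p = 0.091), and Ldha, lactate dehydrogenase A, had 657 to 1072 CPM in iHep_Foxa3, against 703 and 571 CPM in MEF (adjusted p = 0.19). Hk2, hexokinase 2, had 138 to 184 CPM in iHep_Foxa3, against 50.9 and 59.6 CPM in MEF (log2 fold change 1.49 ± 0.27 (SE), adjusted p = 0.00012). Slc2a1, the GLUT1 glucose carrier, had 124 to 177 CPM in iHep_Foxa3, against 92.2 and 56.6 CPM in MEF (log2 fold change 1.07 ± 0.26 (SE), adjusted p = 0.0020), a call that ended without MEF replicate 2 (adjusted p = 0.087). Eno2 had 7.51 to 24.4 CPM in iHep_Foxa3, against 49.3 and 56.5 CPM in MEF (log2 fold change -1.94 ± 0.38 (SE), adjusted p = 0.00025). Replicate 1 alone gave 1 higher and 0 lower, 1 was lower without MEF replicate 1, and 1 was higher without MEF replicate 2.

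Fatty acid oxidation gave 16 consistently higher genes of 18, the largest share of any list other than the introduced pair, with none lower and a list median of 1.30. Acsl1, which activates long-chain fatty acids, had 298 to 894 CPM (median 575) in iHep_Foxa3, against 20.1 and 14.99 CPM in MEF (log2 fold change 5.09 ± 0.39 (SE), adjusted p = 2.9e-09). Hadhb, of the mitochondrial trifunctional protein, had 142 to 189.9 CPM in iHep_Foxa3, against 53.7 and 57.05 CPM in MEF (log2 fold change 1.60 ± 0.30 (SE), adjusted p = 0.00015). Acadvl, the very long-chain acyl-CoA dehydrogenase, had 108 to 138 CPM in iHep_Foxa3, against 71.1 and 65.6 CPM in MEF (log2 fold change 0.85 ± 0.15 (SE), adjusted p = 7.6e-05).

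Pdk4, which spares glucose by blocking pyruvate dehydrogenase, had 95.3 to 233 CPM in iHep_Foxa3, against 10.6 and 6.99 CPM in MEF (log2 fold change 4.26 ± 0.63 (SE), adjusted p = 1.3e-05). The count was 11 with the set term, 8 with replicate 1 alone and 12 without either MEF library.

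Cholesterol and fatty acid synthesis went the other way, with 11 of 25 consistently lower, none higher and a list median of -0.89. Mvk and Pmvk, kinases of the mevalonate pathway, had 9.95 to 27.6 CPM in iHep_Foxa3, against 56.2 and 62.4 CPM in MEF (log2 fold change -1.52 ± 0.25 (SE), adjusted p = 3.5e-05) and 18.2 to 45.2 CPM in iHep_Foxa3, against 77.5 and 112 CPM in MEF (log2 fold change -1.70 ± 0.25 (SE), adjusted p = 1.0e-05). Acly, which makes cytosolic acetyl-CoA, had 151 to 281 CPM in iHep_Foxa3, against 420.4 and 527 CPM in MEF (log2 fold change -1.27 ± 0.22 (SE), adjusted p = 7.0e-05). Me1, a source of NADPH, had 18.02 to 44.5 CPM in iHep_Foxa3, against 123 and 85.1 CPM in MEF (log2 fold change -2.01 ± 0.36 (SE), adjusted p = 0.00010).

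The libraries spread widely on this list, from 2354 to 9751 CPM in sum in iHep_Foxa3, against 7299 and 10742 CPM in MEF. Hmgcs1, which makes HMG-CoA, had 168, 136, 380.2, 452, 638 and 218 CPM in iHep_Foxa3 replicates 1 to 6, against 746 and 1513 CPM in MEF (log2 fold change -1.77 ± 0.44 (SE), adjusted p = 0.0026), and its call ended without MEF replicate 2 (log2 fold change -1.13, adjusted p = 0.15). Insig1, a sterol sensor, had 76.1, 55.8, 233, 209.8, 319.9 and 139 CPM in iHep_Foxa3 replicates 1 to 6, against 479.6 and 1096 CPM in MEF (log2 fold change -2.19 ± 0.49 (SE), adjusted p = 0.00093), and its call ended likewise (-1.44, adjusted p = 0.092). Scd2, a desaturase, had 615 to 4222 CPM in iHep_Foxa3, against 1807 and 2284 CPM in MEF, overlapping (adjusted p = 0.99). Replicate 1 alone gave 20 lower genes of this list, and without MEF replicate 2 there were 5.

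Epithelial junctions and keratins rose, 21 of 33 consistently higher and 1 lower, with a list median of 4.45. Cdh1, E-cadherin, had 197 to 678 CPM (median 357) in iHep_Foxa3, against 0.192 and 0.1903 CPM in MEF (log2 fold change 11.03 ± 0.86 (SE), adjusted p = 3.4e-09). Krt18, a keratin of simple epithelia, had 243 to 726 CPM (median 380.5) in iHep_Foxa3, against 1.29 and 0.904 CPM in MEF (log2 fold change 8.67 ± 0.97 (SE), adjusted p = 3.7e-07). Lsr, of tricellular junctions, had 279.8 to 557 CPM (median 424) in iHep_Foxa3, against 0.718 and 1.28 CPM in MEF (log2 fold change 8.74 ± 0.58 (SE), adjusted p = 4.0e-10). No iHep_Foxa3 library came near MEF for these 3 genes.

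F11r, the junction adhesion molecule JAM-A, had 199.5 to 264 CPM in iHep_Foxa3, against 15.9 and 26.1 CPM in MEF (log2 fold change 3.46 ± 0.24 (SE), adjusted p = 5.8e-10). Krt19, a keratin of ducts and gut rather than of mature hepatocytes, had 311 to 993 CPM in iHep_Foxa3, against 42.6 and 9.18 CPM in MEF (adjusted p = 0.00043); it had 1.102 and 0.125 CPM in Hep. Gjb2, the gap junction protein connexin 26, was the lower one and is named after its values were seen, with 0 to 0.366 CPM in iHep_Foxa3, against 48.6 and 71.2 CPM in MEF (log2 fold change -8.34 ± 0.74 (SE), adjusted p = 1.7e-08).

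Regulators of epithelium rose with them: 16 of 23 were consistently higher, none was lower and the list median was 6.29. Esrp2, a splicing factor of epithelia, had 12.4 to 41.6 CPM (median 31.7) in iHep_Foxa3, against 2.73 and 1.05 CPM in MEF (adjusted p = 5.2e-06). Klf5, a zinc finger factor of gut epithelium, had 35.7 to 119.7 CPM (median 62.8) in iHep_Foxa3, against 5.602 and 4.33 CPM in MEF (log2 fold change 3.81 ± 0.56 (SE), adjusted p = 1.3e-05). Spint2, an inhibitor of serine proteases at the cell surface, had 315 to 464 CPM in iHep_Foxa3, against 4.45 and 2.85 CPM in MEF (log2 fold change 6.72 ± 0.60 (SE), adjusted p = 2.1e-08).

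Grhl1, of the grainyhead family that sets up junction genes, had 4.15 to 13.8 CPM in iHep_Foxa3, against 0.239 and 0.0476 CPM in MEF (adjusted p = 1.5e-05). The count was 10 without MEF replicate 1 and 7 without MEF replicate 2.

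**Figure D3:**
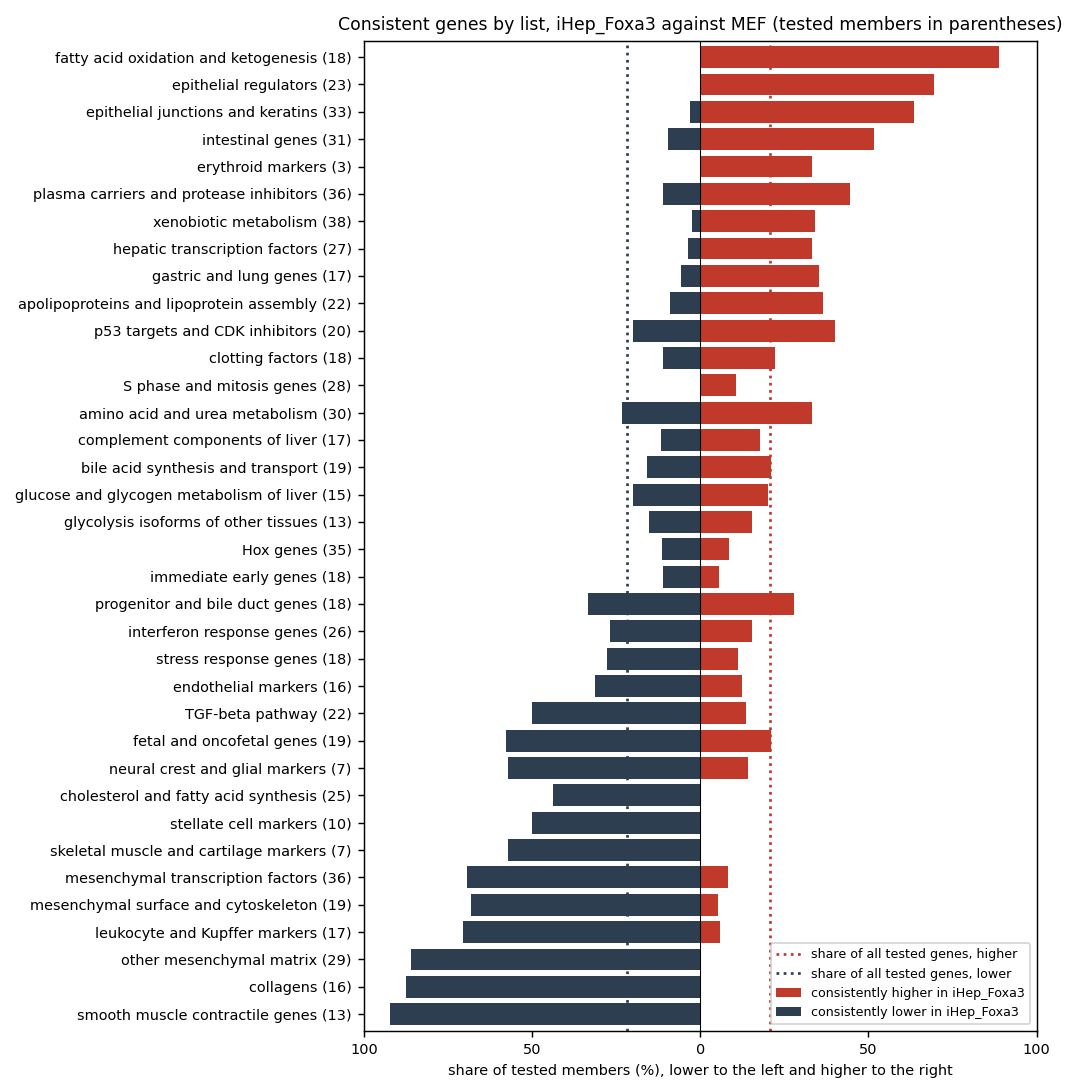
Share of tested members of each list that were consistently higher (red, to the right) or consistently lower (dark, to the left) in iHep_Foxa3 than in MEF, with dotted lines at the shares of all genes tested, 20.8% and 21.9%. Fatty acid oxidation (16 of 18) is at the top and smooth muscle (12 of 13 lower) at the bottom.

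Intestinal genes were higher in 16 of 31 tested and lower in 3, with a list median of 5.40; 13 were under 1 CPM in both groups. Vil1, villin of the brush border, had 197 to 297 CPM (median 219.9) in iHep_Foxa3, against 0 and 0.0476 CPM in MEF (adjusted p = 2.7e-06). Tspan8, a tetraspanin of gut epithelium, had 239 to 355 CPM (median 304) in iHep_Foxa3, against 0.0958 and 0.285 CPM in MEF (adjusted p = 4.0e-09), and Tff3, a trefoil peptide of goblet cells, had 189 to 758 CPM (median 307) in iHep_Foxa3, against 0.0479 and 0 CPM in MEF (adjusted p = 0.00013). Hepatocytes were under 1 CPM for all 3.

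Cdx2, the homeobox regulator of intestine, is named after its values were seen. It had 109, 16.1, 36.8, 48.1, 46.4 and 81.7 CPM in iHep_Foxa3 replicates 1 to 6, against 0 and 0 CPM in MEF. With no MEF count the mean was at least 788-fold higher (adjusted p = 3.1e-05), and both Hep libraries were at 0. Vill had 130.2 to 301 CPM in iHep_Foxa3, against 15.7 and 12.8 CPM in MEF (log2 fold change 3.91 ± 0.47 (SE), adjusted p = 1.0e-06). Anpep, aminopeptidase N, which fibroblasts also carry, was lower at 0.161 to 1.05 CPM in iHep_Foxa3, against 17.8 and 27.9 CPM in MEF (log2 fold change -5.28 ± 0.42 (SE), adjusted p = 4.6e-09), as was Ephb2 at 0.331 to 1.58 CPM in iHep_Foxa3, against 55.7 and 51.2 CPM in MEF (log2 fold change -5.98 ± 0.56 (SE), adjusted p = 3.4e-08). Without either MEF library 10 members were higher.

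Among 17 gastric and lung genes 6 were higher and 1 lower, against 20.8% and 21.9% of all genes tested. Of the 17, 7 had means under 1 CPM in both groups. Gkn2, gastrokine 2 of the stomach lining, had 7.31, 819.5, 639, 338, 325 and 164 CPM in iHep_Foxa3 replicates 1 to 6, against 0 and 0.0476 CPM in MEF. Replicate 1 was far under the others and still above MEF, where 1 count was seen (adjusted p = 0.00013). Pgc, the progastricsin gene, had 1.06 to 21.3 CPM (median 5.62) in iHep_Foxa3, against 0 and 0 CPM in MEF, at least 117-fold higher (adjusted p = 0.00038), and Sox21 had 6.44 to 52.5 CPM in iHep_Foxa3, against 0.0958 and 0.143 CPM in MEF (adjusted p = 4.8e-05). Scgb1a1, a club cell protein of airways, had 1.93 to 34.1 CPM in iHep_Foxa3, against 0 and 0 CPM in MEF and did not pass the test (adjusted p = 0.062). Sox2 was at 0 in all 6 iHep_Foxa3 libraries and at 1.15 and 0.904 CPM in MEF, at least 60.1-fold lower (adjusted p = 1.3e-05).

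Genes of progenitors and bile ducts were mixed, 5 higher and 6 lower of 18, against 20.8% higher and 21.9% lower of all genes tested. Lgr5, a Wnt receptor partner of stem cells, was lower at 0.161 to 0.685 CPM in iHep_Foxa3, against 15.8 and 89.2 CPM in MEF (adjusted p = 5.2e-09), and Aqp1, a water channel of ducts and endothelium, was lower at 0.198 to 6.92 CPM in iHep_Foxa3, against 372 and 112 CPM in MEF (adjusted p = 1.1e-05). Slc4a2, an anion exchanger, was lower at 34.1 to 60.05 CPM in iHep_Foxa3, against 301 and 198 CPM in MEF (log2 fold change -2.44 ± 0.25 (SE), adjusted p = 1.3e-07). Spp1, osteopontin, had 75.8, 187, 125, 1405, 508 and 636 CPM in iHep_Foxa3 replicates 1 to 6, against 969 and 1338 CPM in MEF, overlapping, with an adjusted p of 0.25. Replicate 1 alone gave 2 higher and 3 lower.

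Collagens fell in nearly the whole list. Of 16 tested, 14 were consistently lower and none higher, with a list median log2 fold change of -5.71. Summed over the list, iHep_Foxa3 libraries held 729 to 1477 CPM and MEF libraries 67104 and 67513.5 CPM. In bulk RNA, fewer cells making a gene and less RNA per cell cannot be told apart. Col1a1, of fibrillar type I collagen, had 11.97 to 39.8 CPM (median 20.5) in iHep_Foxa3, against 25472 and 20378 CPM in MEF (log2 fold change -9.996 ± 0.78 (SE), adjusted p = 3.5e-09). Its partner Col1a2 had 1.36 to 21.6 CPM (median 7.83) in iHep_Foxa3, against 9202 and 10173 CPM in MEF (log2 fold change -9.88 ± 0.94 (SE), adjusted p = 5.1e-08). Col3a1 had 0.959 to 3.79 CPM in iHep_Foxa3, against 3365 and 5753 CPM in MEF (log2 fold change -10.80 ± 0.82 (SE), adjusted p = 2.3e-09), and Col5a2 had 2.86 to 13.5 CPM in iHep_Foxa3, against 4177 and 5188 CPM in MEF (log2 fold change -9.44 ± 0.86 (SE), adjusted p = 2.7e-08).

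Other matrix genes gave 25 consistently lower of 29 and none higher, with a list median of -4.75. Sparc, which binds collagen, had 38.7 to 69.2 CPM (median 53.04) in iHep_Foxa3, against 3839.6 and 4438 CPM in MEF (log2 fold change -6.28 ± 0.51 (SE), adjusted p = 5.7e-09). Lox, which crosslinks collagen and elastin, had 13.9 to 117 CPM (median 56.02) in iHep_Foxa3, against 3548 and 3068 CPM in MEF (log2 fold change -5.75 ± 0.68 (SE), adjusted p = 6.9e-07), and Thbs1, thrombospondin 1, had 38.3 to 281 CPM in iHep_Foxa3, against 4406 and 4241 CPM in MEF (log2 fold change -5.13 ± 0.74 (SE), adjusted p = 9.2e-06). Fbln5 had 1.87 to 7.34 CPM in iHep_Foxa3, against 505 and 526 CPM in MEF (log2 fold change -7.07 ± 0.51 (SE), adjusted p = 1.1e-09), and Serpinh1, the collagen chaperone, had 166 to 265 CPM in iHep_Foxa3, against 1805 and 1899.6 CPM in MEF (log2 fold change -3.06 ± 0.27 (SE), adjusted p = 2.2e-08). Fn1, fibronectin, which hepatocytes also secrete, had 776 to 2455 CPM (median 1872) in iHep_Foxa3, against 8615 and 7354 CPM in MEF (log2 fold change -2.24 ± 0.59 (SE), adjusted p = 0.0038, and 0.33 with the set term). Without iHep_Foxa3 replicate 2, 1 gene of this list was higher.

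The 10 largest falls included elastic fibre and signalling genes, and also C1qc, a macrophage gene given below among the leukocyte markers. Eln, elastin, had 0 to 0.252 CPM in iHep_Foxa3, against 1078 and 2076 CPM in MEF (adjusted p = 5.5e-08), with 11 iHep_Foxa3 counts in all. Lum, lumican, a proteoglycan of collagen fibrils, had 0 to 0.0665 CPM in iHep_Foxa3, against 39.6 and 226 CPM in MEF (adjusted p = 7.3e-12), with the MEF libraries far apart. Fgf5, a growth factor of hair and limb mesenchyme, was at 0 in all 6 iHep_Foxa3 libraries, against 13.02 and 12.1 CPM in MEF, at least 735-fold lower (adjusted p = 4.0e-07).

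C1qtnf2 (10.97 and 28.3 CPM in MEF) and Stac (12.3 and 6.66 CPM in MEF) were likewise at 0 in iHep_Foxa3, at least 1150.3-fold and 557-fold lower. Dkk2, a Wnt inhibitor of mesenchyme, had 0 to 0.0726 CPM in iHep_Foxa3, against 47.9 and 56.7 CPM in MEF (adjusted p = 5.4e-11). Epha3, an ephrin receptor, had 0 to 0.0363 CPM in iHep_Foxa3, against 34.6 and 57.4 CPM in MEF, and Ednrb, an endothelin receptor, had 0 to 0.145 CPM in iHep_Foxa3, against 79.7 and 52.1 CPM in MEF. Cmklr1, the chemerin receptor, had 0 to 0.0331 CPM in iHep_Foxa3, against 17.6 and 27.8 CPM in MEF. The iHep_Foxa3 values of these 4 genes rest on 1 to 4 counts, so no fold is given.

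Mesenchymal surface and cytoskeleton genes gave 13 lower and 1 higher of 19, with a list median of -2.34. Cdh11, a cadherin of mesenchyme, had 9.14 to 51.7 CPM (median 23.5) in iHep_Foxa3, against 537 and 951 CPM in MEF (log2 fold change -4.96 ± 0.58 (SE), adjusted p = 7.1e-07). Pdgfrb, a receptor of fibroblasts and pericytes, had 4.13 to 27.2 CPM in iHep_Foxa3, against 234 and 356 CPM in MEF (log2 fold change -4.21 ± 0.55 (SE), adjusted p = 2.7e-06), and Ncam1 had 0.694 to 3.31 CPM in iHep_Foxa3, against 62.01 and 159 CPM in MEF (log2 fold change -5.89 ± 0.56 (SE), adjusted p = 4.5e-08, and -5.03 without MEF replicate 2). Vim, vimentin, stayed abundant at 619 to 1227 CPM in iHep_Foxa3, against 4680.0 and 2444 CPM in MEF (log2 fold change -2.06 ± 0.40 (SE), adjusted p = 0.00028).

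Axl, a receptor tyrosine kinase, was the higher one, with 646 to 965 CPM in iHep_Foxa3, against 454 and 425 CPM in MEF (log2 fold change 0.80 ± 0.25 (SE), adjusted p = 0.013); the call ended without either MEF library (adjusted p = 0.063 and 0.094). With replicate 1 alone 8 members were lower.

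Smooth muscle genes, which cultured fibroblasts carry when activated, were lower in 12 of 13, with none higher and a list median of -6.10. Acta2, smooth muscle actin, had 1.87 to 12.6 CPM (median 6.76) in iHep_Foxa3, against 681 and 664 CPM in MEF (log2 fold change -6.60 ± 0.58 (SE), adjusted p = 1.5e-08). Tagln, transgelin, had 2.701 to 19.02 CPM (median 7.05) in iHep_Foxa3, against 1152 and 1117 CPM in MEF (log2 fold change -7.07 ± 0.65 (SE), adjusted p = 2.9e-08), and Myl9, a myosin light chain, had 0.129 to 0.831 CPM in iHep_Foxa3, against 61.9 and 55.4 CPM in MEF (log2 fold change -6.92 ± 0.52 (SE), adjusted p = 2.2e-09). Myh11 had 0.0322 to 0.436 CPM in iHep_Foxa3, against 22.1 and 6.95 CPM in MEF (adjusted p = 3.4e-08), and Cald1, caldesmon, had 159.5 to 515 CPM in iHep_Foxa3, against 2061 and 1720.3 CPM in MEF (log2 fold change -2.62 ± 0.51 (SE), adjusted p = 0.00027).

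Mesenchymal transcription factors gave 25 lower and 3 higher of 36, with a list median of -2.74. Prrx1, a homeobox factor of limb mesenchyme, had 13.3 to 85.8 CPM (median 49.3) in iHep_Foxa3, against 609 and 506 CPM in MEF (log2 fold change -3.63 ± 0.66 (SE), adjusted p = 0.00013). Foxc1, a forkhead factor of mesoderm, had 2.65 to 6.08 CPM in iHep_Foxa3, against 110.2 and 62.8 CPM in MEF (log2 fold change -4.24 ± 0.46 (SE), adjusted p = 2.7e-07), and Nfatc4 had 1.66 to 4.901 CPM in iHep_Foxa3, against 175 and 192 CPM in MEF (log2 fold change -6.05 ± 0.58 (SE), adjusted p = 4.9e-08). Mef2c had 0.0331 to 0.399 CPM in iHep_Foxa3, against 23.03 and 34.8 CPM in MEF (adjusted p = 1.6e-08), and Meox2 had 0 to 0.138 CPM in iHep_Foxa3, against 8.48 and 12.2 CPM in MEF (adjusted p = 7.8e-07).

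Tbx15 had 25.6 to 54.9 CPM in iHep_Foxa3, against 288 and 269 CPM in MEF (log2 fold change -2.89 ± 0.65 (SE), adjusted p = 0.0010, and 0.24 with the set term). Hic1 was not consistent: it had 143, 10.5, 8.94, 10.2, 6.65 and 24.4 CPM in iHep_Foxa3 replicates 1 to 6, against 136 and 208 CPM in MEF, so replicate 1 lay within the MEF range. It passed the test (adjusted p = 0.043, but 0.41 with the set term), and its adjusted p was 0.070 to 0.21 in each fit that left out 1 library other than replicate 1. The higher members, named after their values were seen, were Foxf2 (30.8 to 69.3 CPM in iHep_Foxa3, against 2.87 and 3.47 CPM in MEF; log2 fold change 3.74 ± 0.73 (SE), adjusted p = 0.00028), Sox9, a factor of ducts, gut crypts and cartilage (71.7 to 141 CPM in iHep_Foxa3, against 18.1 and 21.6 CPM in MEF; log2 fold change 2.55 ± 0.54 (SE), adjusted p = 0.00061), and Runx1 (71.2 to 92.3 CPM in iHep_Foxa3, against 38.1 and 46.2 CPM in MEF; log2 fold change 0.95 ± 0.20 (SE), adjusted p = 0.00057). The lower count was 16 with the set term and 10 with replicate 1 alone.

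**Figure D4:**
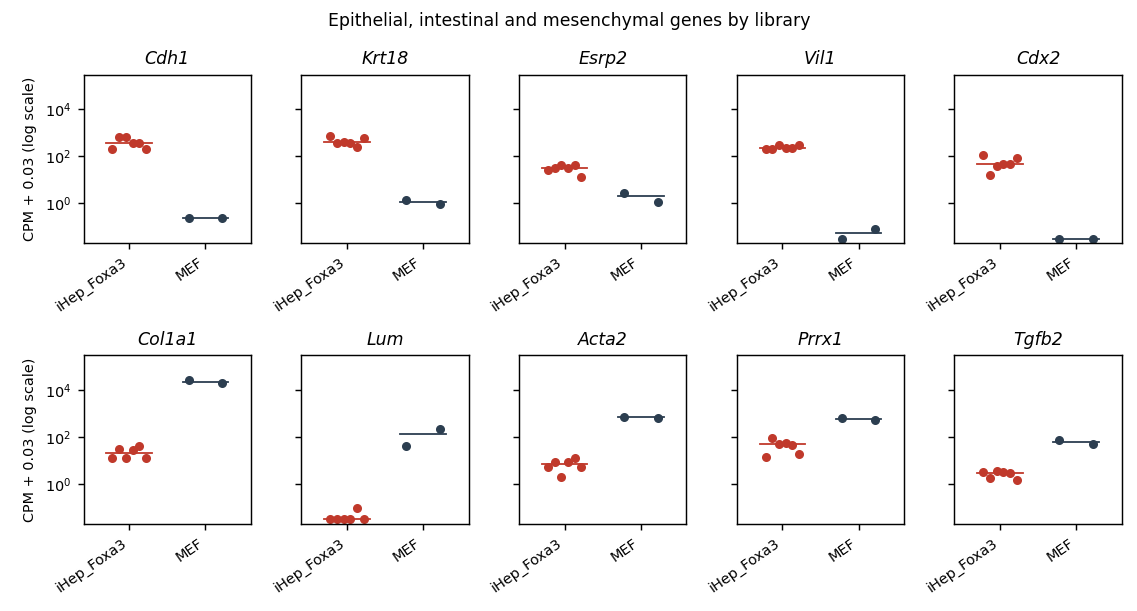
CPM + 0.03 on a log axis for 5 epithelial or intestinal genes and 5 mesenchymal genes, 1 point a library and a line at the median, in iHep_Foxa3 (6 libraries) and MEF (2). Cdh1, Krt18, Esrp2, Vil1 and Cdx2 are higher in all iHep_Foxa3 libraries, and Col1a1, Lum, Acta2, Prrx1 and Tgfb2 lower in all of them.

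Hox genes, which record position along the body and limb, mostly did not pass: of 35, 3 were higher and 4 lower. Both shares were under those of all genes. The 4 lower genes were neighbours of the HoxD cluster, Hoxd10 to Hoxd13. Hoxd13 had 0.193 to 1.03 CPM (median 0.509) in iHep_Foxa3, against 105 and 97.5 CPM in MEF (log2 fold change -7.44 ± 1.32 (SE), adjusted p = 9.8e-05), Hoxd12 had 0 to 0.288 CPM in iHep_Foxa3, against 32.2 and 29.9 CPM in MEF (adjusted p = 1.3e-07) and Hoxd11 had 0.0332 to 0.649 CPM in iHep_Foxa3, against 29.3 and 25.98 CPM in MEF (log2 fold change -6.23 ± 1.21 (SE), adjusted p = 0.00024). Hoxa9 of the HoxA cluster had 17.7 to 31.5 CPM in iHep_Foxa3, against 29.2 and 35.2 CPM in MEF, overlapping (adjusted p = 0.62).

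With the set term 1 Hox gene was higher and 3 lower, and with replicate 1 alone 0 and 1; without MEF replicate 1 none was higher.

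TGF-beta genes gave 11 lower and 3 higher of 22, with a list median of -1.08. The ligands Tgfb2 and Tgfb3 had 1.37 to 3.38 CPM in iHep_Foxa3, against 74.7 and 49.7 CPM in MEF (log2 fold change -4.58 ± 0.49 (SE), adjusted p = 2.0e-07) and 8.28 to 24.7 CPM in iHep_Foxa3, against 315 and 334 CPM in MEF (log2 fold change -4.45 ± 0.43 (SE), adjusted p = 6.1e-08). Ltbp2, of the latent complex family, had 6.27 to 25.001 CPM in iHep_Foxa3, against 539 and 379 CPM in MEF (log2 fold change -5.18 ± 0.60 (SE), adjusted p = 5.1e-07). The lower count was 7 with the set term.

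Fetal and imprinted growth genes gave 11 lower and 4 higher of 19, with a list median of -2.28. Igf2, a fetal growth factor, had 77.8 to 502 CPM (median 143) in iHep_Foxa3, against 5253 and 3806 CPM in MEF (log2 fold change -4.54 ± 0.80 (SE), adjusted p = 8.6e-05). Grb10, which dampens insulin signalling, had 1.69 to 10.3 CPM in iHep_Foxa3, against 607 and 640.3 CPM in MEF (log2 fold change -6.57 ± 0.85 (SE), adjusted p = 2.3e-06), and Mest had 1.69 to 3.34 CPM in iHep_Foxa3, against 307 and 276 CPM in MEF (log2 fold change -6.89 ± 0.33 (SE), adjusted p = 4.2e-12). Peg10 had 1.93 to 5.696 CPM in iHep_Foxa3, against 49.1 and 34.2 CPM in MEF (log2 fold change -3.44 ± 0.48 (SE), adjusted p = 5.9e-06), and Hmga2, a chromatin protein of growing tissue, had 118 to 230.5 CPM in iHep_Foxa3, against 611 and 364 CPM in MEF (log2 fold change -1.55 ± 0.30 (SE), adjusted p = 0.00026). The higher members were Afp, Spink1, Igf2bp1 and Igf2bp2. With replicate 1 alone 6 were lower and 2 higher, and without MEF replicate 2 there were 2 higher.

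Few cell cycle genes passed the test: of 28 genes of S phase and mitosis, 3 were higher and none lower. The list median was -0.01, and 20.8% of all genes tested were consistently higher and 21.9% lower. Ccne2, cyclin E2, had 15.8 to 40.03 CPM in iHep_Foxa3, against 9.05 and 6.71 CPM in MEF (log2 fold change 1.73 ± 0.30 (SE), adjusted p = 8.8e-05). Mcm7 had 93.4 to 173 CPM in iHep_Foxa3, against 74.6 and 67.1 CPM in MEF (log2 fold change 0.79 ± 0.27 (SE), adjusted p = 0.021), with 0.076 and 0.13 without each MEF library, and Rrm2 had 105 to 178 CPM in iHep_Foxa3, against 92.1 and 51.6 CPM in MEF (log2 fold change 0.98 ± 0.31 (SE), adjusted p = 0.012), with 0.23 without MEF replicate 2 and 0.064 with the set term. Mki67 had 119.9 to 272 CPM in iHep_Foxa3, against 111 and 107 CPM in MEF (adjusted p = 0.11), Top2a had 122 to 342 CPM in iHep_Foxa3, against 192 and 147 CPM in MEF (0.51) and Ccnd1 had 227 to 1020.1 CPM in iHep_Foxa3, against 1400.2 and 556 CPM in MEF (0.36). With replicate 1 alone none of the list was higher, without MEF replicate 2 there was 1 higher, and without iHep_Foxa3 replicate 1 there were 2 lower.

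Targets of p53 and inhibitors of CDKs gave 8 higher and 4 lower of 20, against 20.8% higher and 21.9% lower of all genes tested. Mdm2, which degrades p53 and is its target, had 517 to 1644 CPM (median 646) in iHep_Foxa3, against 241 and 123 CPM in MEF (log2 fold change 2.21 ± 0.46 (SE), adjusted p = 0.00055). Trp53inp1 had 506 to 963 CPM in iHep_Foxa3, against 191 and 244 CPM in MEF (log2 fold change 1.68 ± 0.29 (SE), adjusted p = 8.1e-05), and Pmaip1, which encodes NOXA, had 118 to 342 CPM in iHep_Foxa3, against 44.1 and 43.01 CPM in MEF (log2 fold change 2.20 ± 0.41 (SE), adjusted p = 0.00015). Ccng1 had 949.9 to 1532 CPM in iHep_Foxa3, against 1001 and 634 CPM in MEF (adjusted p = 0.23). The CDK inhibitors Cdkn2b and Cdkn2c were lower, at 25.4 to 62.1 CPM in iHep_Foxa3, against 151 and 151 CPM in MEF (log2 fold change -1.95 ± 0.37 (SE), adjusted p = 0.00019) and 4.199 to 9.41 CPM in iHep_Foxa3, against 22.8 and 27.7 CPM in MEF (log2 fold change -1.74 ± 0.27 (SE), adjusted p = 2.3e-05). The higher count was 5 with replicate 1 alone and 5 and 4 without each MEF library, and 2 were lower with the set term or replicate 1 alone.

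Of 26 interferon genes tested, 4 were consistently higher and 7 lower, against 20.8% higher and 21.9% lower of all genes tested. Ifit3 had 3.1004 to 16.8 CPM in iHep_Foxa3, against 39.5 and 137 CPM in MEF (adjusted p = 0.0011, 0.066 without MEF replicate 2 and 0.072 with the set term), and Isg15 had 0.931 to 4.36 CPM in iHep_Foxa3, against 8.52 and 79.1 CPM in MEF (adjusted p = 0.00067, 0.26 without MEF replicate 2 and 0.067 with the set term). Without that library no member was lower and 5 were higher, and without MEF replicate 1 there were 11 lower. With the set term, or replicate 1 alone, none was lower, and replicate 1 alone gave 2 higher. The antiviral GTPases Mx1 and Mx2 were higher, at 8.43 to 78.1 CPM in iHep_Foxa3, against 0.0479 and 1.67 CPM in MEF (adjusted p = 0.00011) and 29.6 to 68.8 CPM in iHep_Foxa3, against 1.82 and 6.14 CPM in MEF (adjusted p = 9.1e-05). B2m, of MHC class I, had 51.8 to 192 CPM in iHep_Foxa3, against 146 and 212 CPM in MEF, overlapping (adjusted p = 0.56).

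Immediate early genes gave 1 higher and 2 lower of 18, shares under those of all genes. Myc, which drives growth, had 118 to 314 CPM (median 158) in iHep_Foxa3, against 27.5 and 12.1 CPM in MEF (log2 fold change 3.24 ± 0.48 (SE), adjusted p = 1.2e-05, and 3.97 without MEF replicate 1). Klf2 had 0.252 to 2.86 CPM in iHep_Foxa3, against 65.9 and 31.6 CPM in MEF (adjusted p = 4.1e-05), and Fosl2 had 33.7 to 93.4 CPM in iHep_Foxa3, against 243 and 187 CPM in MEF (log2 fold change -1.76 ± 0.42 (SE), adjusted p = 0.0015, and 0.18 with the set term). Jun and Egr1 overlapped, with adjusted p of 0.095 and 0.64, and Egr1 differed between the MEF libraries, at 805 and 82.2 CPM. Jun passed the test without iHep_Foxa3 replicate 1 (-2.65, adjusted p = 0.0087), and Egr1 without MEF replicate 1 (2.81, adjusted p = 0.0073). The counts rest on single libraries: 5 were higher without MEF replicate 1 and 4 lower without iHep_Foxa3 replicate 1, while replicate 1 alone gave 2 higher and the set term 1 lower.

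Stress genes gave 2 higher and 5 lower of 18, against 20.8% higher and 21.9% lower of all genes tested. Ddit3, which encodes CHOP, had 11.4 to 23.04 CPM (median 16.3) in iHep_Foxa3, against 118 and 135 CPM in MEF (log2 fold change -2.93 ± 0.24 (SE), adjusted p = 7.0e-09). Trib3 and Chac1, also targets of the ATF4 branch, had 0.9301 to 7.28 CPM in iHep_Foxa3, against 73.2 and 78.03 CPM in MEF (log2 fold change -4.59 ± 0.58 (SE), adjusted p = 1.9e-06) and 0.545 to 3.69 CPM in iHep_Foxa3, against 29.7 and 18.7 CPM in MEF (log2 fold change -3.82 ± 0.53 (SE), adjusted p = 5.3e-06). Hspa5, the BiP chaperone, had 1333 to 2072 CPM in iHep_Foxa3, against 1499.6 and 1129 CPM in MEF (adjusted p = 0.28). Hspb1, a small heat shock protein, had 69.7 to 212 CPM in iHep_Foxa3, against 15.1 and 20.6 CPM in MEF (log2 fold change 2.91 ± 0.62 (SE), adjusted p = 0.00061). With the set term, or without either MEF library, 3 were lower and 1 higher, and replicate 1 alone gave 1 higher.

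Markers of other cells were checked as whole lists. Of 17 leukocyte and Kupffer markers tested, 12 were lower and 1 higher, and their sum was 34.2 to 146.2 CPM in iHep_Foxa3, against 34.5 and 382.4 CPM in MEF. C1qc, of the macrophage complement C1q, had 0 to 0.0689 CPM in iHep_Foxa3, against 10.8 and 152 CPM in MEF, with 3 iHep_Foxa3 counts; Lyz2, lysozyme, had 0.496 to 4.75 CPM in iHep_Foxa3, against 9.24 and 79.4 CPM in MEF (adjusted p = 0.00016, and 0.13 without MEF replicate 2), and Csf1r had 0 to 0.193 CPM in iHep_Foxa3, against 2.01 and 12.9 CPM in MEF (adjusted p = 1.2e-06). MEF replicate 2 was thus far above replicate 1 in C1qc, and the part of such cells in genes lower in iHep_Foxa3 was not tested. Cd14 was the higher one, with 32.3 to 138 CPM in iHep_Foxa3, against 1.006 and 3.62 CPM in MEF (adjusted p = 6.2e-05).

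Of 16 endothelial markers 2 were higher and 5 lower, their sum being 12.6 to 64.7 CPM in iHep_Foxa3, against 54.9 and 97.8 CPM in MEF. Over all genes tested, 20.8% were consistently higher and 21.9% lower. Of the 16 markers, 7 had means under 1 CPM in both groups. Kdr and Flt1, VEGF receptors, had 0 to 0.827 CPM in iHep_Foxa3, against 26.9 and 9.42 CPM in MEF (adjusted p = 2.7e-05) and 0.0361 to 3.204 CPM in iHep_Foxa3, against 13.02 and 63.6 CPM in MEF (adjusted p = 0.00044), and Tek had 0 to 0.241 CPM in iHep_Foxa3, against 5.89 and 5.52 CPM in MEF (adjusted p = 1.0e-06). Lyve1, of lymphatic and sinusoidal endothelium, was higher at 1.06 to 41.7 CPM in iHep_Foxa3, against 0.0479 and 0.0952 CPM in MEF (adjusted p = 0.00081). With replicate 1 alone 2 were lower, and without MEF replicate 2 there were 3. In both, and with the set term or without MEF replicate 1, 1 was higher.

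Stellate cell markers were lower in 5 of 10 and higher in none (sum 35.4 to 74.8 CPM in iHep_Foxa3, against 93.2 and 138.2 CPM in MEF). Hgf had 0.0661 to 0.655 CPM in iHep_Foxa3, against 10.7 and 12.2 CPM in MEF (log2 fold change -4.79 ± 0.98 (SE), adjusted p = 0.00041, and 0.15 with the set term), Des had 0 to 0.8597 CPM in iHep_Foxa3, against 10.2 and 7.76 CPM in MEF (adjusted p = 0.00046) and Reln had 0 to 0.298 CPM in iHep_Foxa3, against 3.304 and 1.09 CPM in MEF (adjusted p = 0.00010). With the set term 3 were lower and with replicate 1 alone 2. Of 7 muscle and cartilage markers 4 were lower (1 with replicate 1 alone), such as Comp with 2.49 to 5.72 CPM in iHep_Foxa3, against 78.4 and 38.7 CPM in MEF (log2 fold change -3.87 ± 0.72 (SE), adjusted p = 0.00019, and -3.27 without MEF replicate 1) and Acta1 with 0 to 0.225 CPM in iHep_Foxa3, against 5.698 and 1.903 CPM in MEF (adjusted p = 4.9e-05); sums were 4.07 to 16.4 CPM in iHep_Foxa3, against 48.5 and 147.1 CPM in MEF.

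Neural crest markers gave 4 lower and 1 higher of 7 (1 lower with replicate 1 alone). Sox10, which defines that lineage, had 0 to 0.0661 CPM in iHep_Foxa3, against 1.58 and 1.52 CPM in MEF (adjusted p = 0.00014), and S100b had 0 to 0.577 CPM in iHep_Foxa3, against 6.66 and 1.14 CPM in MEF (adjusted p = 0.00033, 0.061 without MEF replicate 1 and 0.092 with the set term). Ngfr overlapped (adjusted p = 0.97). The higher one, Erbb3, also carried by epithelia, had 19.9 to 65.6 CPM in iHep_Foxa3, against 1.05 and 0.761 CPM in MEF (log2 fold change 5.57 ± 0.97 (SE), adjusted p = 8.0e-05). Their sum was 22.1 to 66.9 CPM in iHep_Foxa3, against 7.99 and 13.6 CPM in MEF. Of 3 erythroid markers tested Epor was higher, with 4.65 to 14.5 CPM in iHep_Foxa3, against 0.383 and 0.666 CPM in MEF (log2 fold change 4.13 ± 0.90 (SE), adjusted p = 0.00073), and the sum was 4.99 to 14.9 CPM in iHep_Foxa3, against 1.006 and 1.71 CPM in MEF.

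The 6 iHep_Foxa3 libraries differed among themselves. Among 1341 consistent genes with an iHep_Foxa3 mean of at least 5 CPM and a log2 fold change of at least 2 either way, the highest library was a median of 3.01 times the lowest, on CPM + 0.5. It was under 2 times for 292 of them (21.8%) and 10 times or more for 88 (6.56%). Replicate 1 was the lowest library for 47 of those 88 genes and the highest for 17; replicate 2 was the highest for 23. These are descriptions, with no test.

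Gkn2 had the widest range, with a ratio of 105. After it came Clca4b, of the family of Clca1, with 70.5, 1.03, 3.41, 3.703, 1.696 and 1.77 CPM in iHep_Foxa3 replicates 1 to 6, against 0 and 0 CPM in MEF, and Ppp2r2c, with 65.4, 2.101, 2.06, 3.27, 1.197 and 12.5 CPM in iHep_Foxa3 replicates 1 to 6, against 0.383 and 0.0476 CPM in MEF. Replicate 1 alone was high for both. Muc5b, a gel-forming mucin, had 0.0331, 1.58, 2.44, 12.9, 19.2 and 0.541 CPM in iHep_Foxa3 replicates 1 to 6, against 0 and 0 CPM in MEF, with replicates 4 and 5 high.

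Wnt4, a secreted signal, had 14.02, 449.9, 382, 90.6, 114 and 40.3 CPM in iHep_Foxa3 replicates 1 to 6, against 2.87 and 2.38 CPM in MEF, with replicates 2 and 3 high, and Lyve1 followed the same order at the top with 41.7 and 26.9 CPM. Clca4a had 849, 29.7, 125, 119, 57.4 and 77.7 CPM in iHep_Foxa3 replicates 1 to 6, against 0 and 0.0952 CPM in MEF, where replicate 1 was high, as for Dscaml1 with 31.05, 3.72, 2.86, 2.11, 0.432 and 2.27 CPM in iHep_Foxa3 replicates 1 to 6, against 0 and 0 CPM in MEF. Igfbp5, a binder of IGFs, was lower than MEF in every iHep_Foxa3 library, with 1.59, 8.89, 9.74, 47.1, 18.3 and 75.3 CPM in iHep_Foxa3 replicates 1 to 6, against 654 and 1045 CPM in MEF (adjusted p = 0.0012, and 0.17 with the set term). The calls of Clca4b (adjusted p = 0.063 and 0.067), Muc5b (0.13 and 0.14) and Dscaml1 (0.052 and 0.056) ended without either MEF library, and that of Ppp2r2c without MEF replicate 2 (0.11).

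The 10 narrowest ranges were found at levels still apart from MEF. Lnx2, a ubiquitin ligase, had 47.98 to 55.1 CPM in iHep_Foxa3, against 12.2 and 9.14 CPM in MEF (log2 fold change 2.26 ± 0.26 (SE), adjusted p = 5.4e-07), its highest library being 1.15 times its lowest. Galnt7, which starts O-glycans, had 320.2 to 384 CPM in iHep_Foxa3, against 13.7 and 9.896 CPM in MEF (log2 fold change 4.88 ± 0.35 (SE), adjusted p = 9.8e-10). Slc2a9, a urate carrier, had 36.7 to 46.6 CPM in iHep_Foxa3, against 2.25 and 2.95 CPM in MEF (log2 fold change 3.98 ± 0.24 (SE), adjusted p = 1.4e-10), and Rps6ka1, the RSK1 kinase, had 49.8 to 60.1 CPM in iHep_Foxa3, against 5.65 and 3.76 CPM in MEF (log2 fold change 3.56 ± 0.40 (SE), adjusted p = 4.4e-07). The ratio of highest to lowest library was 1.198 for Galnt7, 1.27 for Slc2a9 and 1.203 for Rps6ka1.

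Sec14l2, a lipid transfer protein, had 5.16 to 6.17 CPM in iHep_Foxa3, against 1.72 and 1.05 CPM in MEF (log2 fold change 2.004 ± 0.47 (SE), adjusted p = 0.0014), Mxi1, a Max partner, had 50.8 to 65.2 CPM in iHep_Foxa3, against 12.7 and 13.3 CPM in MEF (log2 fold change 2.15 ± 0.21 (SE), adjusted p = 6.1e-08) and Tlcd5 had 26.6 to 34.1 CPM in iHep_Foxa3, against 5.46 and 7.47 CPM in MEF (log2 fold change 2.20 ± 0.39 (SE), adjusted p = 9.4e-05). Lower than MEF with a narrow range were Vasn (23.9 to 30.1 CPM in iHep_Foxa3, against 246 and 231 CPM in MEF; log2 fold change -3.16 ± 0.36 (SE), adjusted p = 5.3e-07), P3h3, a collagen prolyl hydroxylase (21.9 to 28.1 CPM in iHep_Foxa3, against 261 and 318 CPM in MEF; log2 fold change -3.59 ± 0.36 (SE), adjusted p = 9.5e-08), and Vcan, versican (56.2 to 72.1 CPM in iHep_Foxa3, against 215 and 341 CPM in MEF; log2 fold change -2.15 ± 0.52 (SE), adjusted p = 0.0020, and 0.056 without MEF replicate 2).

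**Figure D5:**
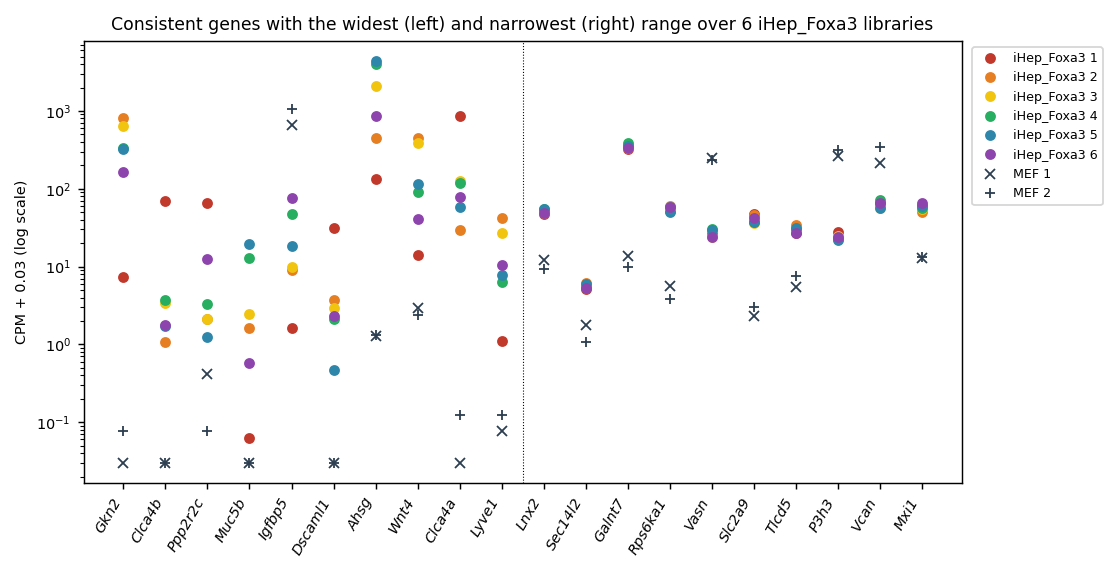
CPM + 0.03 on a log axis for the 10 consistent genes with the widest range over the 6 iHep_Foxa3 libraries (left of the dotted line) and the 10 with the narrowest (right), coloured by iHep_Foxa3 replicate, with MEF as crosses. Among the widest ranges, replicate 1 is lowest for Gkn2, Muc5b, Igfbp5, Ahsg, Wnt4 and Lyve1 and highest for Clca4b, Ppp2r2c, Dscaml1 and Clca4a.

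The consistent genes were then compared with the other iHep cells, since those carry Hnf4a with another Foxa factor. Against iHep_Foxa1, 1373 of 16499 genes were called (8.32%), 646 higher (3.92%) and 727 lower (4.41%). Of the 3424 consistently higher genes, 383 (11.2%) were also higher than in iHep_Foxa1 and 82 (2.39%) lower, and of the 3621 consistently lower genes, 34 (0.939%) were higher and 371 (10.2%) lower. Both comparisons share the iHep_Foxa3 libraries, so this match of direction is no independent result. With the set term, 340, 50, 30 and 236 of these calls were kept in the same direction. The count of 1373 was 2074 with the set term, 2344 without iHep_Foxa3 replicate 1, 719 without replicate 4, 754 without replicate 5 and 874 without iHep_Foxa1 replicate 2.

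Foxa3 differed by design. Hnf4a, introduced in both groups, had a median of 827 CPM in iHep_Foxa3 and 338 CPM in iHep_Foxa1. Its log2 difference was 1.24 ± 0.42 (SE), with adjusted p = 0.070, and 0.10 with the set term. The part of Hnf4a level in the other differences was not tested. Beside Foxa3, Trf was higher (median 1669 CPM in iHep_Foxa3, median 427 CPM in iHep_Foxa1; log2 difference 2.28 ± 0.46 (SE), adjusted p = 0.0059, and 0.0068 with the set term), as was Clic6 (median 161 CPM in iHep_Foxa3, median 45.4 CPM in iHep_Foxa1; log2 difference 2.07 ± 0.40 (SE), adjusted p = 0.0051, and 0.0037 with the set term). Slc2a9 was higher (log2 difference 1.21 ± 0.13 (SE), adjusted p = 2.5e-05, and 5.1e-05 with the set term). Grb10 was lower (median 7.09 CPM in iHep_Foxa3, median 19.95 CPM in iHep_Foxa1; log2 difference -2.97 ± 0.67 (SE), adjusted p = 0.011, and 0.00047 with the set term), and so was Hoxd13 (log2 difference -4.19 ± 1.10 (SE), adjusted p = 0.023, and 0.023 with the set term). Ttr was lower too (median 0.481 CPM in iHep_Foxa3, median 3.87 CPM in iHep_Foxa1; log2 difference -4.38 ± 1.09 (SE), adjusted p = 0.020, and 0.036 with the set term).

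Against iHep_Foxa2, whose 4 libraries were all of low Rn7sk, 5139 genes were called (31.1%), 2496 higher (15.1%) and 2643 lower (16.0%), but 800 with the set term. That term rests on replicate 1 for the iHep_Foxa3 side of the low set. Hnf4a, introduced in both groups, had a median of 827 CPM in iHep_Foxa3 and 204 CPM in iHep_Foxa2. Its log2 difference was 2.19 ± 0.51 (SE), with adjusted p = 0.0038, and 0.15 with the set term. The part of Hnf4a level in the other differences was not tested. Of the consistently higher genes 1340 (39.1%) were higher than in iHep_Foxa2, 247 of them also with the set term, and of the consistently lower genes 1381 (38.1%) were lower, 117 of them also with the set term; here too the iHep_Foxa3 libraries are shared. Fgb was higher (median 1436 CPM in iHep_Foxa3, median 123 CPM in iHep_Foxa2; log2 difference 4.31 ± 0.71 (SE), adjusted p = 0.00047, and 0.011 with the set term), as were Spink1 (median 3197 CPM in iHep_Foxa3, median 155 CPM in iHep_Foxa2; log2 difference 4.33 ± 0.86 (SE), adjusted p = 0.0016, and 0.031 with the set term), Sprr2a1 (log2 difference 6.12 ± 0.96 (SE), adjusted p = 0.00039, and 0.0061 with the set term), Angptl4 (log2 difference 5.10 ± 1.001 (SE), adjusted p = 0.0014, and 0.035 with the set term) and Afp (log2 difference 4.71 ± 1.20 (SE), adjusted p = 0.0068, and 0.022 with the set term). Foxc1 was lower (median 4.55 CPM in iHep_Foxa3, median 40.97 CPM in iHep_Foxa2; log2 difference -3.60 ± 0.41 (SE), adjusted p = 2.5e-05, and 0.0046 with the set term).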

How the data were processed

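Column-purified total RNA went into Illumina TruSeq stranded mRNA libraries, per the labels' protocols. Reads were processed with BWA 0.7.12 and build mm9, per the submitters' processing notes; which quantifier and annotation were used is not given in the sources used here. In each library's file of 30710 transcripts the authors deposited an expected count (Z), an FPKM value and a fraction of reads (THETA), per the file headers. Transcripts were named through RefSeq (30190) and GENCODE (181); the other 339 took 1.00% to 3.02% of reads in the 8 libraries and are not named. Expected counts were summed to 23712 gene rows, rounded and tested with edgeR 4.0.16 (R 4.3.3; filterByExpr, TMM, robust quasi-likelihood F test, 2-sided, Benjamini-Hochberg) in 1 model of all 28 libraries and 9 groups with 19 residual degrees of freedom, checked on simulated data. FPKM was used for an alternative and for levels per length; the fraction column was not tested. Each SE printed is the size of the log2 fold change divided by the square root of its F statistic. It is not an error fitted by the model, and is least sure where a group has few counts. Reads carry no molecular identifiers, so floors (3 counts over a group) cover counting error only.

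Nameable genes were the introduced and other Foxa genes, the 10 largest consistent rises and 10 falls with a higher mean of at least 5 CPM, up to 4 members per list by adjusted p and up to 4 by level (8 where few were consistent), and the 10 widest and 10 narrowest ranges; 14 others are marked as chosen after their values were seen. Members and the 37 lists were chosen with earlier results of these data known. A few named genes are not reported here. Alternatives were DESeq2 1.42.0 size factors and Wald test, limma 3.58.1 on log2(FPKM + 1), no filter, the most abundant transcript, a fit of only the 2 groups, replicate numbers as a block, a term for the library set (Rn7sk over 10 CPM), the low set alone, and each library left out. Where 1 MEF library is left, its spread is taken from the other groups. Coordinates are GRCm38.p6 for promoters only, since no mm9 annotation was used. Tools for tables and figures were Python 3.11.15, pandas 2.3.3, numpy 2.4.6, scipy 1.17.1 and matplotlib 3.10.9.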

Additional observations from a re-analysis of the deposited data

Results flagged for a closer look

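For each of the 233 named genes, a library was marked where it stood alone among the 6 iHep_Foxa3 libraries: its gap to the nearest of the others, as a share of the whole range, was above Dixon's 95% critical value. For normal values not chosen by their spread, chance marks about 1 in 20 groups. The named genes include the 10 with the widest ranges in these libraries, and unlogged CPM was used. That rate is thus no measure for the 26 genes marked here. Values are CPM, with the range of the other 5 libraries after each.

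Replicate 1 stood alone for Clic6 390.4 (others 145 to 198), Atf5 71.4 (others 12.2 to 25.2), Apoa1 7588 (others 16334 to 19763), Abcb4 62.7 (others 14.3 to 24.7) and Sult1a1 27.97 (others 85.3 to 110.3). It did so too for Sox21 52.5 (others 6.44 to 17.3), Hic1 143 (others 6.65 to 24.4), Foxf2 69.3 (others 30.8 to 42.8) and Ifit3 16.8 (others 3.10 to 6.24). Replicate 1 also stood alone for Clca4b 70.5 (others 1.03 to 3.70), Ppp2r2c 65.4 (others 1.20 to 12.5), Dscaml1 31.0 (others 0.432 to 3.72) and Clca4a 849 (others 29.7 to 125). Replicate 2 stood alone for Hnf4a 1505 (others 548 to 872), Ppara 10.5 (others 2.35 to 5.12), Scgb1a1 34.1 (others 1.93 to 12.3) and Aqp1 6.92 (others 0.198 to 2.03). Replicate 3 stood alone for Smgc 1684 (others 140.2 to 632) and AW112010 476 (others 41.3 to 186). Replicate 4 stood alone for Fga 3.70 (others 0.288 to 0.727). Replicate 5 stood alone for Alb 163 (others 10.8 to 58.0), F7 7.11 (others 0.361 to 1.61), Tagln 19.02 (others 2.70 to 8.27) and Igf2 502 (others 77.8 to 222). Replicate 6 stood alone for Oit1 515 (others 129.9 to 251.1) and Gsta1 549.6 (others 355 to 412). 

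Replicate 1, the library of low Rn7sk, was the one standing alone for 13 of the 26 genes. Among them, Clca4b, Ppp2r2c, Dscaml1 and Clca4a had been named for their wide range in these libraries. Whether the set of replicate 1 and the marked values move together was not tested.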

How the results depend on the processing

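Against MEF, the fitted fold of 49 consistent genes turned sign with the set term and of 5 with the low set alone, none of them called there; in the other alternatives none did among the consistent genes with a value. The count of called genes (7689) was 3990 with the low Rn7sk set alone (iHep_Foxa3 replicate 1 against MEF) and 4858 to 8345 with 1 library left out. Called higher genes (3781) were 2019 with that set and 2164 to 4015 with 1 library left out, and called lower genes (3908) were 1971 and 2694 to 4330. Consistent genes (7045) were 3990 with that set and 4857 to 8048 with 1 library left out: 2019 and 2163 to 3868 higher, 1971 and 2694 to 4180 lower. Fewer libraries enter these fits.

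Against iHep_Foxa1 the count (1373) was 2257 with DESeq2's Wald test, 2074 with the set term and 719 to 2344 with 1 library left out. Against iHep_Foxa2 the count (5139) was 800 with the set term and 3771 to 6343 with 1 library left out. The cause was not tested. Rn7sk itself reversed, with a log2 fold change of -0.62 (adjusted p = 0.57) with the set term and -0.52 (0.86) in the low set alone, since that RNA defines the set.

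Replicate numbers 1 and 2 are shared by both groups, and these libraries were not treated as pairs. Deviations from the group means correlated at r = 0.003 and -0.073 for same-numbered libraries. The deviations of 2 MEF libraries mirror each other, so this check cannot decide whether they are pairs. With the replicate block, 3096 genes were consistently higher and 3174 lower (6270 in all), 6831 were called, and the counts against iHep_Foxa1 and iHep_Foxa2 were 1550 and 3588.

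Of the 37 lists, the higher or lower count moved by over 1.5 times in 24 with the low set alone, 16 with the set term, 15 and 14 without MEF replicates 1 and 2, 2 and 3 without iHep_Foxa3 replicates 1 and 2, 11 with limma, 9 with the 2 groups alone, 4 with DESeq2's Wald test and 3 with the block. Of 203 called named genes, 181 kept the call without any 1 library and 22 lost it without some library. Calls ended for 17 with the set term (Rn7sk, Rps29, Nr1i3, F7, Pros1, Cyp7b1, Por, Fn1, Hic1, Tbx15, Rrm2, Ifit3, Isg15, Fosl2, Hgf, S100b and Igfbp5), for 41 in the low set alone, 5 with limma, 6 with the block, 3 with the 2 groups alone, 1 with no filter and 0 with DESeq2's size factors, its Wald test or the most abundant transcript. The numbers for limma and the Wald test cover the 201 and 199 called named genes that had a value there. Depth limits genes with few MEF counts: the folds printed for Foxa3, Cdh1, Sult1a1 and Nr1i2 rest on 9, 8, 6 and 5 MEF counts.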

Other observations

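Shares of annotated transcripts were looked at in 8 genes known for isoforms of epithelium or other tissues, over 38 transcripts. For the genes other than Enah and Tpm1, the shares lay within 3.3 percentage points of an equal split in each library, so these deposited counts do not separate their isoforms. Enah, which encodes an actin regulator, was the exception of most size: 1 of its 4 transcripts, NM_001083121, held 25.3% of the gene's expected counts in iHep_Foxa3 and 38.2% in MEF, a difference of -12.92 percentage points. The exact permutation test gave p = 0.071, the smallest that 6 against 2 libraries allow, and every iHep_Foxa3 library was below both MEF libraries. Transcripts of Ctnnd1, Pkm and Fn1 reached the same p at smaller differences, such as 1.86 points for NM_011099 of Pkm. Genes needed only 50 counts in every library, and the counting error of single shares was not estimated. Without 1 library the difference was -13.85 to -11.99 points, and with shares of FPKM it was -13.7 points.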
